A study of Mus musculus with 6 samples.

Results

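Dentate granule cell genes were examined in hippocampal RNA taken 24 h after controlled cortical impact or sham surgery. The 8 genes were Prox1, C1ql2, C1ql3, Dsp, Stxbp6, Pdzd2, Tdo2 and Trpc6. They were chosen by symbol as genes enriched in granule cells of the dentate gyrus, out of 52550 genes listed for every library. The rule uses no measured value, but the choice was made with earlier results of these data known. All 8 passed the filter on low counts, among 18795 genes that did. Male mice, C57BL / 6 per the labels and 8 to 10 weeks old per the study's methods, had a craniotomy over the right parietal bone under ketamine and xylazine, and 3 mice (TBI1 to TBI3) then received a moderate impact while 3 (Sham1 to Sham3) did not. Each library came from 1 mouse. The impact was on 1 side, and per the study the whole hippocampus was examined and tissue of both sides was exposed. Which side or sides went into a library is not given in the sources used here.

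The dentate gyrus is the entry station of the hippocampal circuit. Its granule cells receive input from the entorhinal cortex and send their axons, the mossy fibres, to the hilus and to the pyramidal cells of CA3, and new granule cells are added throughout adult life. The cells are small and densely packed. In tissue RNA, fewer granule cells and less RNA per granule cell cannot be told apart.

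Levels are given as CPM, counts after scaling for library size. The comparison of TBI with sham used the quasi-likelihood test of edgeR, with Benjamini-Hochberg adjustment over the 18795 genes tested. A gene was called when p was under 0.05, the adjusted p was under 0.1 and the fold change was over 1.5 in either direction. Negative log2 fold changes are lower in TBI. The smallest p that an exact permutation test could give for 1 gene with 3 mice against 3 is 0.1.

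Before any comparison, 2 of the TBI libraries and 1 sham library stood apart in markers of neighbouring tissue. The summed level of 6 striatal markers was 3691 CPM in TBI1 and 131.3 to 181.2 CPM in the other 5 libraries, and all 6 markers were highest in TBI1. The summed level of 4 cerebellar markers was 1295 CPM in TBI3 and 9.38 to 37.8 CPM elsewhere, and all 4 were highest in TBI3. Gabra6, a defining gene of cerebellar granule cells, had 0 counts in Sham1, Sham2 and TBI1. The 4 choroid plexus markers summed to 31.4 CPM in Sham2, 228.0 CPM in TBI1, 238.6 CPM in TBI3 and 1948 to 2270 CPM in the other 3 libraries. Total counts ran from 31630936 to 41771872. The mean log2 level of 5 thalamic genes, relative to sham, was -1.21 in Sham2 and -1.04 in TBI1 and 0.00 to 1.77 in the other 4 libraries. These markers differ between libraries of the same group, and their part in the values of the dentate genes was not tested, so log2 fold changes are also given without 1 or more of these libraries where they moved most.

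Read as a set, the 8 dentate genes were lowest in TBI1. Averaged over the 8 genes, the log2 level relative to the mean of sham was 0.58 in Sham1, -0.66 in Sham2 and 0.08 in Sham3. In the TBI libraries it was -1.96 (TBI1), -0.07 (TBI2) and -0.36 (TBI3). TBI2 and TBI3 thus lay inside the range of the sham libraries, and TBI1 lay below it. TBI1 was the lowest of the 6 libraries for 5 of the 8 genes (Prox1, C1ql2, C1ql3, Dsp and Tdo2), against 20.6% of all genes tested, TBI3 for Pdzd2 and Trpc6 (background 18.0%) and Sham2 for Stxbp6 (background 23.0%). At the other end, Sham1 was the highest library for 7 of the 8, against 14.2% of all genes tested, and Pdzd2 was the exception, highest in TBI1 (background 19.7%).

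**Figure D1:**
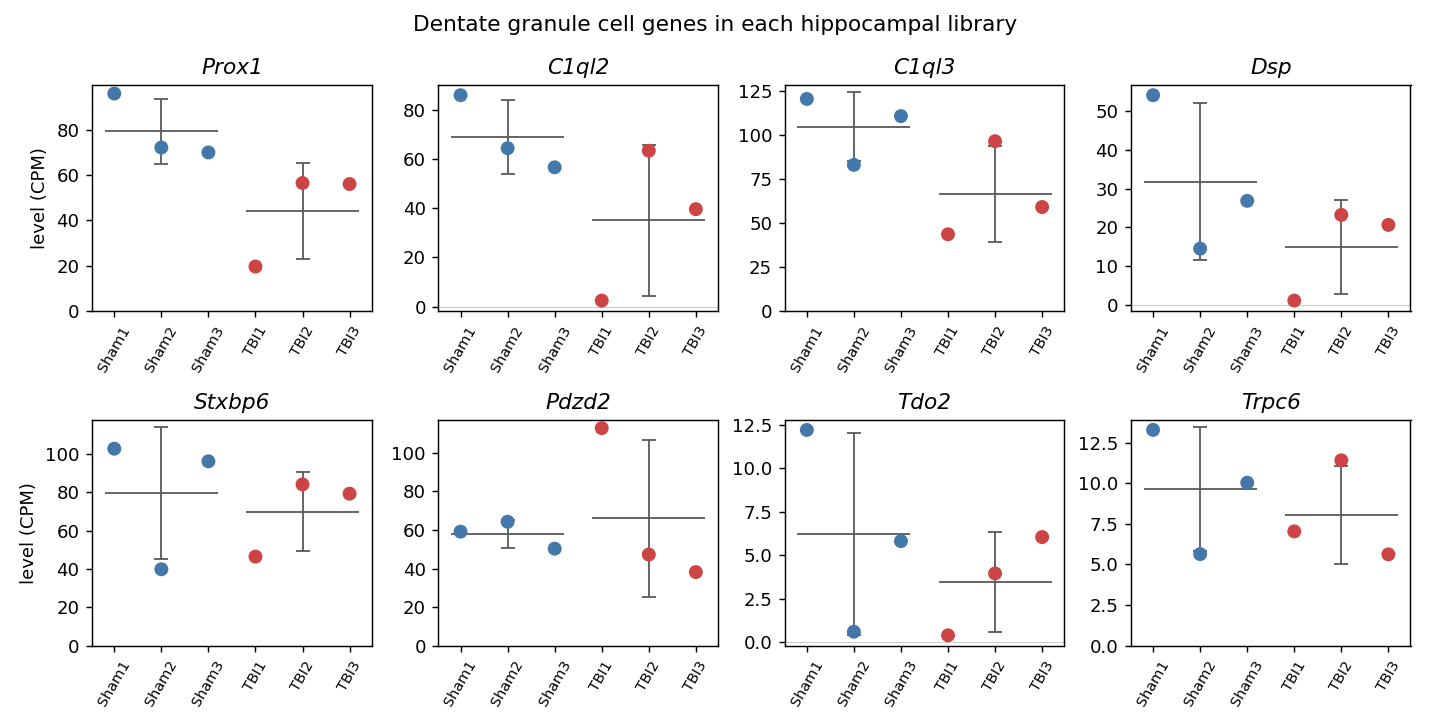
Level of each dentate granule cell gene in CPM (y axis) in the 3 sham (blue) and 3 TBI (red) libraries (x axis). Horizontal lines are group means and bars are 1 SD (n = 3 mice). TBI1 is the lowest point for Prox1, C1ql2, C1ql3, Dsp and Tdo2 and the highest for Pdzd2.

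The sequence before the annotated start was read for each gene from RefSeq on GRCm38.p6, with 9 starts for the 8 genes. The GC box GGGCGG, searched on both strands in the 250 bases before the start, was found at 5 of the 9 starts (both starts of Prox1, and C1ql3, Dsp and Pdzd2), against 32.7% of 32851 starts of all genes. The TATA box TATAAA was found at 1 start of Prox1 and at that of Tdo2, against 12.4%, and the cAMP-response element TGACGTCA at 0 of the 9, against 1.55%. The CCAAT box was found at 1 of the 9 (Tdo2), against 33.8%, and the E-box CAGATG at 1 of the 9 (Prox1), against 14.4%. GC content over these bases ran from 46.4% for Tdo2 to 72.4% for Dsp, with a median of 52.4% over all starts. The starts are those of RefSeq. In GENCODE vM21 all 250 bases are exon, of the gene or of another one, for C1ql3, Dsp and Tdo2. So are 226 bases for Stxbp6, 118 for the second start of Prox1 and 32 for Pdzd2. The Dsp window lies wholly before the GENCODE start of Dsp, so its exonic bases belong to another gene. The windows of C1ql3, Tdo2, Stxbp6 and Pdzd2 and the second of Prox1 are not all upstream of the gene. Upstream sequences are printed for Prox1, in which the groups did not overlap, for C1ql2, which was nearly absent from TBI1, and for Pdzd2, which was highest there, so that they can be set side by side. Capitals mark the GC box or the TATA box on either strand, bases are 5′ to 3′ on the strand of the gene, and bases annotated as exon in GENCODE vM21 were left out for Pdzd2.
Prox1, minus strand, chr1:190170828-190171077: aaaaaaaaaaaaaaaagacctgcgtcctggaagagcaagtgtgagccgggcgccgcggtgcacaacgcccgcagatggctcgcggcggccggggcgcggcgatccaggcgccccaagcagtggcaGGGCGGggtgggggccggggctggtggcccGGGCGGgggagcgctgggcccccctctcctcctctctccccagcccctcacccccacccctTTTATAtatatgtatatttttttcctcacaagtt
C1ql2, plus strand, chr1:120340332-120340581: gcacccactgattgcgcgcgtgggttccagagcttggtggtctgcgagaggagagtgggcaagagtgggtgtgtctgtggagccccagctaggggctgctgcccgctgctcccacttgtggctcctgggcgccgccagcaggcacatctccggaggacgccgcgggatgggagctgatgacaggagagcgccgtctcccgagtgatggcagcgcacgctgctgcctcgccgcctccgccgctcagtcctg
Pdzd2, minus strand, chr15:12739925-12740142: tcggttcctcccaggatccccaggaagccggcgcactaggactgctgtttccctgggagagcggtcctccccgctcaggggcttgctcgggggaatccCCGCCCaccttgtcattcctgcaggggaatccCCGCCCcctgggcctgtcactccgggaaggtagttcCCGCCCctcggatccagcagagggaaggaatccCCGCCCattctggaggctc
The Prox1 window has 2 GC boxes and, 34 bases before the start, a TATA box on the other strand. The C1ql2 window has neither motif, and that of Pdzd2 has 4 GC boxes, all on the other strand. A match is only a run of letters and was not tested for a role in these data.

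Prox1 (ENSMUSG00000010175.13) encodes the homeodomain transcription factor that specifies and maintains granule cell identity, and its protein is the usual label of these cells. It lies on the minus strand of chromosome 1 of GRCm38 from 190118035 to 190170714. Its level was 96.0 CPM in Sham1, 72.2 CPM in Sham2 and 70.0 CPM in Sham3, and 19.6 CPM in TBI1, 56.5 CPM in TBI2 and 56.0 CPM in TBI3. Prox1 was the only one of the 8 genes in which the groups did not overlap, where 10.2% of all genes tested did not, and 5.45% did not with TBI the lower group. Sham averaged 79.4 ± 14.4 CPM and TBI 44.0 ± 21.2 CPM (SD, n = 3 each), for a log2 fold change of -0.85 (standard error 0.40, edgeR adjusted p 0.982). Without TBI1 the log2 fold change was -0.50 (standard error 0.18), and without TBI2 it was -1.08. The unadjusted p from edgeR was 0.0318 without TBI1, against 0.0714 with it, and the adjusted p without TBI1 was 0.906. TBI1 held 24.7% of the sham mean, TBI2 71.2% and TBI3 70.6%. An antisense gene, Prox1os, shares 133 exonic bases with Prox1 (1.585% of its exonic length), and its level was 2.62 to 5.85 CPM in sham and 1.52 to 3.96 CPM in TBI.

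C1ql2 and C1ql3 encode secreted proteins with a C1q domain that granule cells release at mossy fibre synapses, where they bind neurexin 3 and gather kainate receptors. C1ql2 (ENSMUSG00000036907.9, plus strand of chromosome 1, 120340582 to 120343174) had 86.0, 64.4 and 56.7 CPM in Sham1 to Sham3 and 2.45, 63.4 and 39.6 CPM in TBI1 to TBI3. TBI1 stood alone, with 3.55% of the sham mean, and the next lowest library was 16.2 times as high, while TBI2 lay within the sham range. The group means were 69.0 ± 15.2 CPM and 35.2 ± 30.7 CPM (SD, n = 3 each), for a log2 fold change of -0.97 (standard error 0.92, edgeR adjusted p 0.982). Without TBI1 it was -0.42 (standard error 0.27), and without TBI1 and TBI3 together -0.12. It was -1.73 without TBI2.

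C1ql3 (ENSMUSG00000049630.6, minus strand of chromosome 2, 13003457 to 13011806) had 120.7, 83.1 and 110.9 CPM in Sham1 to Sham3 and 43.6, 96.6 and 59.1 CPM in TBI1 to TBI3, so that TBI2 fell between the sham libraries. TBI1 held 41.6% of the sham mean of C1ql3, and for this gene TBI3 was almost as low, with 56.3%. The log2 fold change was -0.66 (standard error 0.31, edgeR adjusted p 0.982), -0.43 without TBI1, -0.12 without TBI1 and TBI3 and -1.04 without TBI2. The gene Gm37811, annotated on the opposite strand, covers 1547 exonic bases of C1ql3 (61.03%), and whether the counting used strand is not given in the sources used here, so the split of reads between the pair is uncertain. Gm37811 had 74.8, 47.4 and 63.4 CPM in sham and 26.7, 44.4 and 35.5 CPM in TBI, with no overlap between groups, and the sum of both genes had a log2 fold change of -0.71. A second opposite-strand gene, Gm37824, shares 80 bases (3.156%) and had 0.661 to 4.06 CPM.

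The coding sequences of C1ql2 (864 bases) and C1ql3 (768 bases) are identical at 581 aligned bases (66.7% of the alignment). Their longest shared stretch is 38 bases, printed here because it is the longest piece of coding sequence that a read could not assign to either gene by sequence alone:
C1ql2 from base 505 and C1ql3 from base 409 of the coding sequence: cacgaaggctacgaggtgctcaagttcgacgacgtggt
C1ql1, a relative best known from climbing fibres of the cerebellum, shares at most 26 bases in a row with C1ql3 and 24 with C1ql2.

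Dsp encodes desmoplakin, which ties intermediate filaments to desmosomes in epithelia and heart, and in the brain it is a marker of granule cells. Dsp (ENSMUSG00000054889.10, plus strand of chromosome 13, 38151294 to 38198577) had 54.2, 14.5 and 26.9 CPM in Sham1 to Sham3 and 1.10, 23.2 and 20.7 CPM in TBI1 to TBI3. As for C1ql2, TBI1 was nearly empty of it, with 3.46% of the sham mean and 45 counts, and the next lowest library, Sham2, was 13.2 times as high. TBI2 and TBI3 lay between the lowest and the highest sham library. The sham spread was wide, with the highest library 3.73 times the lowest, and the log2 fold change of -1.09 (standard error 0.98) had an edgeR adjusted p of 0.982. It was -0.54 without TBI1 (standard error 0.53) and -0.47 without Sham1, the highest library, and it was -1.44 without Sham2, -1.57 without TBI2 and -1.41 without TBI3. Gm10129, on the opposite strand, shares 499 exonic bases (5.166%) and had 0 to 1.43 CPM.

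Tdo2 encodes tryptophan dioxygenase, the enzyme that opens the kynurenine pathway in liver, and in the hippocampus it is enriched in granule cells. Tdo2 (ENSMUSG00000028011.16, minus strand of chromosome 3, 81957090 to 81976202) had 12.2, 0.598 and 5.81 CPM in Sham1 to Sham3 and 0.392, 3.95 and 6.04 CPM in TBI1 to TBI3. The low libraries were 1 of each group, Sham2 with 24 counts and TBI1 with 16, and the other 4 libraries had 125 to 494. Within sham alone the highest library was 20.4 times the lowest, the widest range of the 8 genes. The log2 fold change was -0.84 (standard error 1.16, edgeR adjusted p 0.982), and it was 0.11 without Sham1, -0.31 without TBI1, -1.38 without Sham2 and -1.54 without TBI3.

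Stxbp6 encodes amisyn, a syntaxin-binding protein that restrains vesicle fusion. Stxbp6 (ENSMUSG00000046314.16, minus strand of chromosome 12, 44852484 to 45074709) had 102.8, 39.9 and 96.2 CPM in Sham1 to Sham3 and 46.5, 84.1 and 79.3 CPM in TBI1 to TBI3. Sham2 and TBI1 were again the low libraries, with the other 4 between 79.3 and 102.8 CPM. The log2 fold change was -0.19 (standard error 0.39, edgeR adjusted p 0.985), and it was 0.04 without TBI1, 0.04 without Sham1 and -0.51 without Sham2.

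Trpc6 encodes a calcium-permeable cation channel opened by diacylglycerol. Trpc6 (ENSMUSG00000031997.9, plus strand of chromosome 9, 8544142 to 8680741) had 13.3, 5.63 and 10.03 CPM in Sham1 to Sham3 and 7.03, 11.4 and 5.62 CPM in TBI1 to TBI3. The low libraries were Sham2, TBI3 and TBI1, and the groups overlapped over nearly their whole range. The log2 fold change was -0.27 (standard error 0.40, edgeR adjusted p 0.983), and it was 0.04 without Sham1, 0.24 without TBI1 and TBI3, -0.54 without Sham2 and -0.62 without TBI2.

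Pdzd2 encodes a large protein with several PDZ domains, and it was the one gene of the 8 with a positive log2 fold change. Pdzd2 (ENSMUSG00000022197.15, minus strand of chromosome 15, 12359711 to 12739924) had 59.2, 64.3 and 50.3 CPM in Sham1 to Sham3 and 112.9, 47.3 and 38.2 CPM in TBI1 to TBI3. TBI1 was far above the other 5 libraries, with 195% of the sham mean, while TBI2 and TBI3 were below every sham library. With TBI1 the log2 fold change was 0.19 (standard error 0.40, edgeR adjusted p 0.985). Without TBI1 it turned to -0.44 (standard error 0.17), with an unadjusted p of 0.0440 and an adjusted p of 0.906 from edgeR. With Pdzd2 left out, the mean log2 level over the other 7 members was -2.38 (TBI1), -0.04 (TBI2) and -0.33 (TBI3), and sham libraries ran from -0.78 to 0.66.

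None of the 8 genes was called, where edgeR called 0 of 18795 genes (0.0%), and 0 of the 8 had an unadjusted p under 0.05, against 4.29% of all genes tested. DESeq2 with its defaults also called 0 of the 8, with 0.221% of its genes called, and placed Prox1 (unadjusted p 0.0284) and C1ql3 (unadjusted p 0.0382) under 0.05, against 4.11% of its genes. Without TBI1, edgeR called 0 of the 8 (background 0.00518%) and placed Prox1 and Pdzd2 under an unadjusted p of 0.05 (background 4.33%). Without TBI3 it placed 0 of the 8 there (background 2.88%), and without TBI1 and TBI3 also 0 (background 1.7%, with 0.00491% called). By direction, 7 of the 8 had a negative log2 fold change, against 48.6% of all genes tested, and their median was -0.75, against 0.01 over all genes tested. The median was -0.43 without TBI1, -0.83 without TBI3 and -0.21 without both, with 7 of 8 lower without TBI1 (background 50.1%), 7 of 8 without TBI3 (background 50.6%) and 6 of 8 without both (background 52.2%). Without Sham1, the library in which 7 of the 8 were highest, the median was -0.22 and 4 of 8 were lower (background 47.8%). C1ql2, Dsp and Prox1 were in TBI1 at under 50% of the lowest other library, which 2.69% of all genes tested were.

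**Figure D2:**
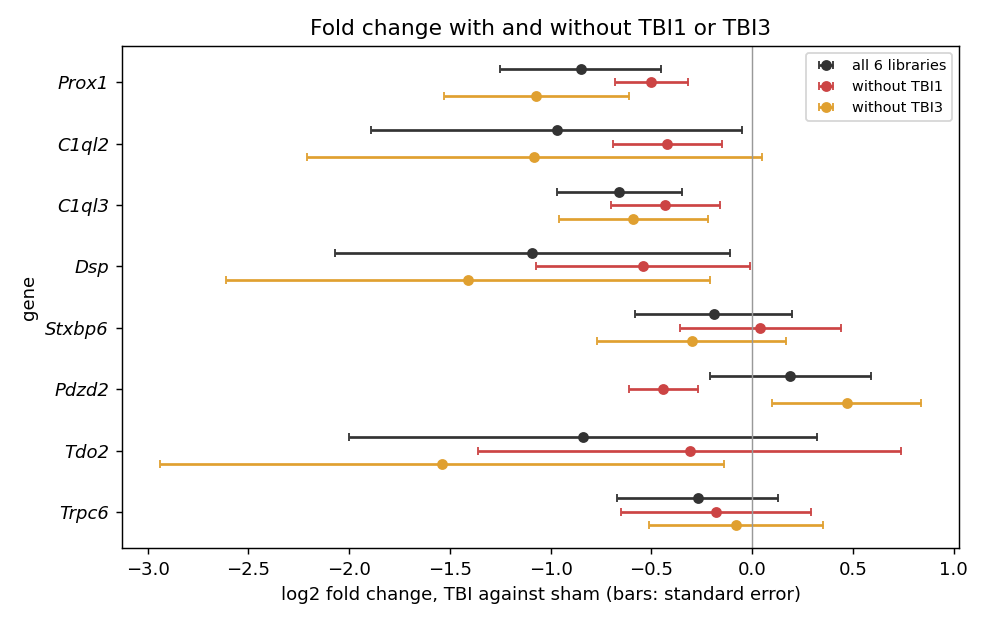
Log2 fold change of TBI against sham (x axis) for each gene (y axis) from all 6 libraries (black), without TBI1 (red) and without TBI3 (orange), with bars of 1 standard error from edgeR. Leaving out TBI1 moves C1ql2 from -0.97 to -0.42 and Dsp from -1.09 to -0.54, and turns Pdzd2 from 0.19 to -0.44.

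Levels of different genes can be compared per length, as CPM per kb of exon. In sham, C1ql3 was highest, with 41.4 ± 7.7 CPM per kb (SD, n = 3), and C1ql2 followed with 34.5 ± 7.6, and their ranges overlapped. Stxbp6 (15.0 ± 6.53) and Prox1 (9.46 ± 1.72) formed a lower step, and their ranges overlapped as well. Below them came Dsp (3.3 ± 2.1) and Pdzd2 (3.15 ± 0.384), and last Trpc6 (1.9 ± 0.758) and Tdo2 (1.6 ± 1.5). Within each of these 4 pairs the ranges of the sham libraries overlapped. Between C1ql2 and Stxbp6, between Prox1 and Dsp and between Pdzd2 and Trpc6 they did not, but the range of Dsp (1.5 to 5.61) also overlapped those of Trpc6 and Tdo2, and the range of Pdzd2 that of Tdo2. In TBI the mean level of C1ql3 was 26.2 ± 10.8 and that of C1ql2 17.6 ± 15.4 CPM per kb (SD, n = 3). The spread between sham libraries also differed by gene, from a coefficient of variation of 12.2% for Pdzd2 and 18.2% for Prox1 to 63.7% for Dsp and 93.7% for Tdo2.

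**Figure D3:**
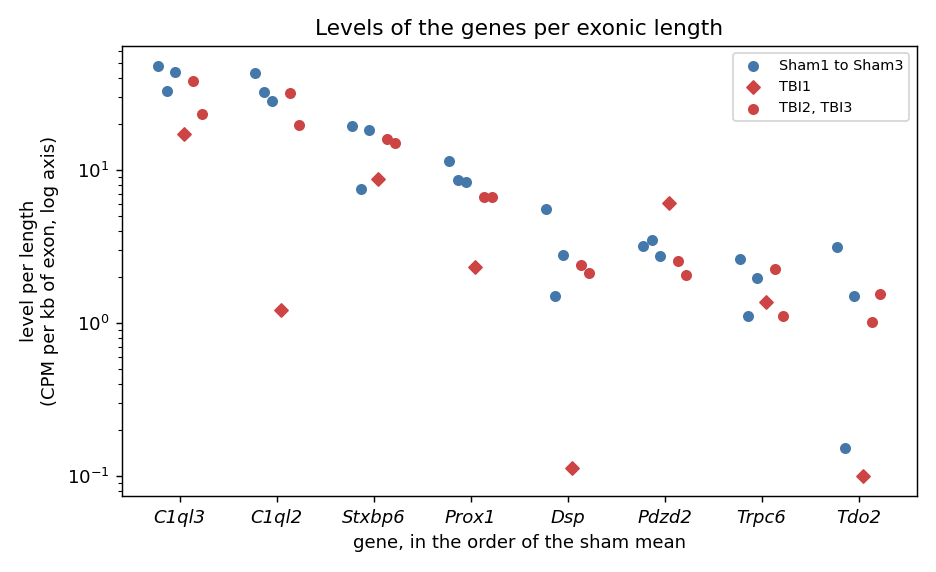
Level per length (CPM per kb of exon, log y axis) of each gene (x axis, in the order of the sham mean), with 1 point for each library, blue for sham and red for TBI, and a diamond for TBI1. The sham means fall from 41.4 for C1ql3 to 1.6 for Tdo2, and the TBI1 diamonds of C1ql2 and Dsp lie far below the other 5 points of the same gene.

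Other genes enriched in granule cells, from a list of 8, had no common direction in TBI1. Lct, which encodes lactase and is a granule cell marker in mouse hippocampus, followed Dsp and Tdo2, with 40.8, 1.74 and 26.2 CPM in sham and 0.319, 14.4 and 13.4 CPM in TBI. Its low libraries were Sham2 and TBI1, and the log2 fold change was -1.29 (standard error 1.35), or -0.67 without TBI1 and TBI3. Sema5a, a semaphorin that limits synapse formation on granule cells, had 123.8, 48.1 and 87.6 CPM in sham and 35.3, 77.2 and 72.2 CPM in TBI, also lowest in TBI1. Maml2, a Notch coactivator, was lowest in TBI1 too, with 11.2 CPM against 15.1 to 20.4 CPM elsewhere. Rfx3, a transcription factor of the RFX family, was the only gene of the list with an unadjusted p under 0.05 (0.0392 from edgeR). Its level was 75.3, 52.7 and 47.8 CPM in sham and 36.2, 48.3 and 32.7 CPM in TBI, a log2 fold change of -0.59 (standard error 0.23, edgeR adjusted p 0.982) that was -0.28 without TBI1 and TBI3.

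In the other 4 genes of that list 1 or 2 libraries stood out. Pdyn, the prodynorphin gene, which striatal neurons also express, had 152.5 CPM in TBI1 and 5.66 to 12.3 CPM elsewhere. Calb1, which encodes calbindin and is also abundant in cerebellar Purkinje cells, had 492.7 CPM in TBI3 and 215.3 CPM in TBI1, against 111.0 to 142.7 CPM in the other 4. Glis3, a zinc finger transcription factor, had 31.2 CPM in Sham2 and 4.61 to 9.20 CPM elsewhere. Plk5, a kinase-like protein of neurons, had 26.2 CPM in TBI3 and 1.72 CPM in Sham2, with the other 4 between 8.28 and 17.6 CPM. The list had a median of -0.37, with 0 of its 8 genes called and 5 negative, and the median was -0.17 without Sham1 and -0.09 without Sham2.

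Pyramidal cell genes were the closest comparison within the hippocampus. Relative to sham, 5 CA1 genes had a mean log2 level of -0.52 (TBI1), -0.16 (TBI2) and -1.04 (TBI3), and 6 CA3 genes one of -0.94, -0.11 and -0.50. For 6 CA2 genes it was 0.13, 0.02 and 0.12. The mean of the 8 dentate genes minus that of a list was -1.44 for CA1, -2.09 for CA2 and -1.01 for CA3 in TBI1, below all 3. In TBI3 these differences were 0.68, -0.49 and 0.14, and in TBI2 0.09, -0.09 and 0.05. Within sham the difference from CA1 ran from -0.70 in Sham2 to 0.60 in Sham1. No test was made of these differences.

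**Figure D4:**
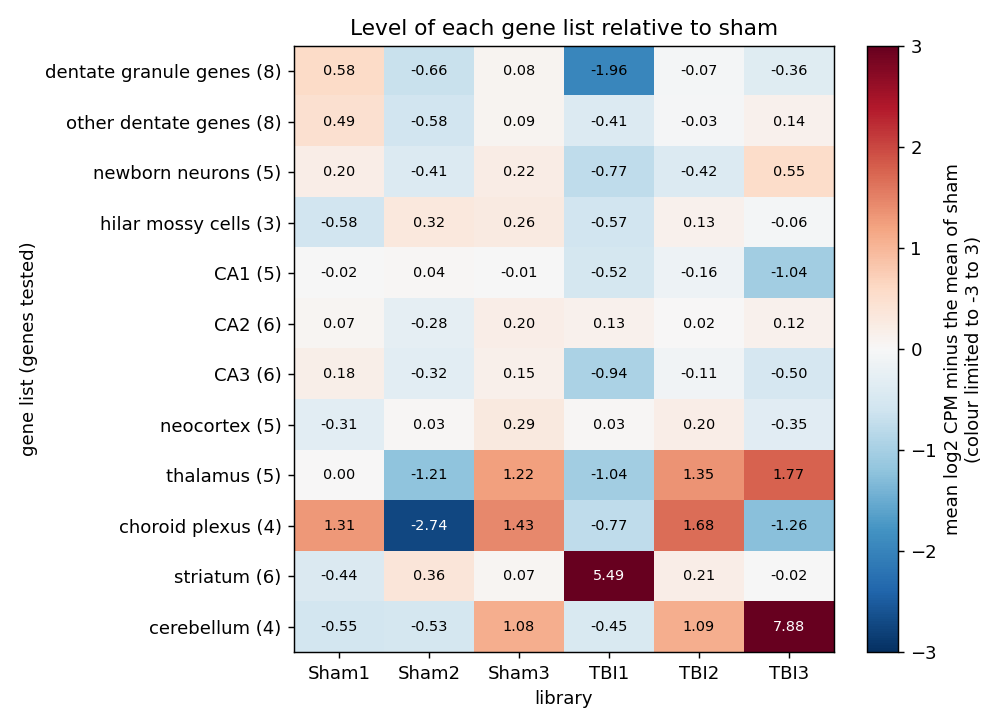
Mean log2 CPM of each gene list (y axis, with the number of genes tested) minus the mean of the sham libraries, by library (x axis), as a colour that stops at -3 and 3 and as a printed number. The dentate granule genes are lowest in TBI1 at -1.96, where the striatal list is at 5.49, and the cerebellar list is at 7.88 in TBI3.

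By gene, Fibcd1, the CA1 marker of the list, had 142.4, 115.1 and 99.9 CPM in sham and 13.1, 76.9 and 49.5 CPM in TBI, lowest in TBI1 like C1ql2 and with no overlap between groups. Mpped1 was also lowest in TBI1, with 102.1 CPM, near the 105.2 CPM of TBI3, and Wfs1 was highest there, with 275.6 CPM. Of the CA3 list, 3 genes had an unadjusted p under 0.05 in edgeR, each lower in TBI. The kainate receptor subunit gene Grik4 had a log2 fold change of -1.0 (standard error 0.34), Nectin3, a cell adhesion gene, -0.64 (standard error 0.17) and Cpne4, a copine, -0.69 (standard error 0.29). Without TBI1 and TBI3 these were -0.63, -0.65 and -0.26. Coch of the same list went the other way, at 1.67 (standard error 0.70, unadjusted p 0.0505 from edgeR), with 71.4 CPM in TBI1 and 6.25 to 17.7 CPM elsewhere, and at 0.55 without TBI1. Of the CA2 list, Pcp4, which is also abundant in striatum and in Purkinje cells, had 120.8 to 371.4 CPM in sham and 1018, 378.1 and 713.7 CPM in TBI (log2 fold change 1.51, standard error 0.49, and 0.61 without TBI1 and TBI3). Each of Grik4, Nectin3, Cpne4 and Pcp4 had an edgeR adjusted p of 0.982. None of the genes of these 3 lists was called.

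Genes of newborn granule neurons and of the hilus varied between libraries. Dcx, doublecortin of migrating neurons, had 14.3, 13.2 and 15.5 CPM in sham and 19.3, 6.64 and 9.67 CPM in TBI. Its log2 fold change was -0.27, or -0.81 without TBI1 (unadjusted p 0.0155 and adjusted p 0.906, both from edgeR). Neurod1, a transcription factor of newborn granule cells that cerebellar granule cells also express, had 99.8 CPM in TBI3, 2.205 CPM in TBI1 and 10.3 to 18.1 CPM in the other 4. Sox11 was highest in Sham2, with 47.3 CPM, against 12.5 to 24.6 CPM elsewhere. The 5 genes of newborn neurons had a median of -0.14, with 3 negative and 0 at an unadjusted p under 0.05. Leaving out single libraries gave medians from -0.57 without TBI1 to 0.04 without Sham1, and without TBI1 and TBI3 the median was -0.46, with 5 of 5 negative. Among hilar mossy cell genes, Calb2, the calretinin gene, had 254.1 CPM in TBI3 and 13.2 CPM in TBI1, with 35.1 to 98.1 CPM in the other 4, and Calcrl had 5.49 to 8.22 CPM in all 6. The median over the 3 mossy cell genes was -0.10.

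Transcription factors of granule neuron development, listed apart from Prox1, had 6 of 9 negative log2 fold changes, against 48.6% of all genes tested. Glis3, Rfx3, Neurod1 and Sox11 of this list also belong to the dentate and newborn neuron lists above. The median was -0.55, and it was -0.04 without Sham2. Neurod2 had 207.2, 258.9 and 158.9 CPM in sham and 39.1, 150.1 and 138.4 CPM in TBI, with no overlap between groups (log2 fold change -0.93, standard error 0.48, and -0.47 without TBI1 and TBI3). Emx2, needed for growth of the dentate gyrus, had an unadjusted p of 0.0474 from edgeR and a log2 fold change of -0.64 (standard error 0.27), or -0.39 without TBI1 and TBI3. Bcl11b, which striatal neurons also express, went the other way in TBI1, with 299.1 CPM against 53.9 to 161.8 CPM elsewhere. Zbtb20, required for hippocampal neuron identity, had 66.1 to 114.6 CPM in sham and 54.1 to 86.7 CPM in TBI.

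Partners of C1ql2 and C1ql3 at the synapse had log2 fold changes from -1.0 for Grik4, given with the CA3 genes, to positive values. Nrxn3, the neurexin they bind, had 138.5 to 155.7 CPM in sham and 130 to 198.7 CPM in TBI (log2 fold change 0.11, standard error 0.17). Adgrb3, an adhesion receptor of C1q-like proteins, had 68.3 to 102.6 CPM in sham and 77.6 to 98.9 CPM in TBI (0.04, standard error 0.18), and Grik2, a kainate receptor subunit gene, differed by 0.24 (standard error 0.18). C1ql1 had an unadjusted p of 0.0495 from edgeR, with 16.3 to 19.2 CPM in sham and 11.2 to 14.6 CPM in TBI, so that the groups did not overlap. Cbln1, a cerebellin of the same family and a cerebellar granule cell gene, had 384.6 CPM in TBI3 and 6.22 to 33.0 CPM elsewhere. Of the 9 genes of this list 2, C1ql1 and Grik4, had an unadjusted p under 0.05, and the median log2 fold change was 0.11.

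The partner genes of the other members were followed in the same way. In the desmosome list, 8 of 10 genes were tested and 0 had an unadjusted p under 0.05. Pkp2, the plakophilin that binds desmoplakin, had 38.3, 26.5 and 31.96 CPM in sham and 8.13, 26.2 and 14.9 CPM in TBI, lowest in TBI1 as Dsp was and without overlap (log2 fold change -0.97, standard error 0.41). Without TBI1 and TBI3 its log2 fold change was -0.30. The list was split, with 4 genes negative, among them Dsg2, a desmoglein (-1.10, standard error 0.55, and -0.18 without TBI1 and TBI3), and 4 positive, among them Pkp4 (0.13), Vim (0.15) and Jup (0.49). Of 8 SNARE genes, Stxbp5, the tomosyn gene, alone had an unadjusted p under 0.05, with 96.4 to 111.4 CPM in sham and 73.2 to 89.9 CPM in TBI (log2 fold change -0.31, standard error 0.13). Snap25 and Vamp2, which encode core SNARE proteins, had log2 fold changes of 0.05 and -0.16.

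The kynurenine list had 7 of 10 genes tested, 0 at an unadjusted p under 0.05, and a median of 0.33. Over the listed genes that each fit tested, the median was 0.04 without Sham2 and 0.07 without TBI3. Over the same 7 genes it was 0.02 without TBI3. Kyat1, a kynurenine aminotransferase, had 8.96 to 9.28 CPM in sham and 9.86 to 15.2 CPM in TBI. Among the relatives of Trpc6, Trpc4 had 28.4, 35.9 and 26.3 CPM in sham and 4.51, 19.1 and 9.36 CPM in TBI, lowest in TBI1 and with no overlap between groups. Its log2 fold change was -1.46 (standard error 0.49, edgeR adjusted p 0.982), and -0.66 without TBI1 and TBI3. Trpc1 had 40.6 to 44.1 CPM in sham and 33.0 to 52.3 CPM in TBI, a log2 fold change of 0.02 (standard error 0.18).

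Outside these lists, the genes whose profile over the 6 libraries was nearest to the mean of the 8 were Fam19a5, Fam19a1, Kctd4, Homez and Chgb. Nearness was the root-mean-square distance between profiles scaled to unit SD, over 15822 genes of at least 1 CPM, and it was 0.05 for Fam19a5 and 0.09 for Chgb, against 0.19 for Dsp and 1.86 for Pdzd2 among the 8 themselves. Kctd4 had 110.3, 46.8 and 83.8 CPM in sham and 18.9, 67.8 and 52.9 CPM in TBI, and Fam19a1 had 71.2, 28.2 and 48.2 CPM and 9.82, 41.5 and 30.6 CPM. Both were thus lowest in TBI1 and highest in Sham1. The scaling removes the size of differences, and Fam19a5 ran only from 122.6 CPM in TBI1 to 158.4 CPM in Sham1.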

How the data were processed

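Hippocampal RNA of 6 mice, 3 sham and 3 TBI, was sequenced on an Illumina NovaSeq. Per the labels and methods, HISAT2 (GRCm38) and StringTie were used by the authors, who deposited estimated counts per gene, not normalized and all whole. The versions of HISAT2 and StringTie, the annotation and the use of strand are not given in the sources used here. These are estimates and not read numbers, so counting error was not computed. Identifiers were matched, without their version numbers, to GENCODE vM21 (52403 of 52550), which also gave exon lengths and overlaps. Total counts per library are given with the results.

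Counts were filtered with filterByExpr, scaled by TMM and tested in edgeR 4.0.16 (R 4.3.3) with the quasi-likelihood test. Log2 levels used a prior count of 2. DESeq2 1.42.0 was an alternative, as were other scalings and filters, robust dispersions, counts divided by 4, each library left out and the replicate number as a block. The fit was tested on simulated data. Named genes were the 8 members, a list of 8 other dentate genes, overlapping genes, of each other list those at an unadjusted p under 0.05 and up to 3 of the most abundant, and the 5 nearest profiles, although not every gene so chosen is described. Pkp2, Grik2, Dsg2 and Coch lie outside this rule and were named after their values were seen. Some genes of these lists are not reported here. The members and all lists were chosen with earlier results of these data known.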

Additional observations from a re-analysis of the deposited data

How the results depend on the processing

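Neither DESeq2 nor another scaling, filter or dispersion, division of the counts by 4, the replicate block or a left-out library gave a call for any of the 8 genes. Over all genes DESeq2 with its defaults called 46, against 0 by edgeR, and genes at an unadjusted p under 0.05 numbered 806, against 346 without TBI1 and TBI3 together, an alternative chosen after seeing the data in which the lone TBI library is assumed to vary like sham. Single libraries turned the sign of 4 genes. Stxbp6 was 0.04 without Sham1 and without TBI1 and 0.08 without TBI1 and TBI3, and it reached -0.51 without Sham2. Pdzd2 was -0.44 without TBI1 and -0.29 without both, and up to 0.47 without TBI3. Tdo2 was 0.11 without Sham1 and -1.54 without TBI3, and Trpc6 was 0.04 without Sham1, -0.62 without TBI2 and 0.24 without TBI1 and TBI3. Prox1, C1ql2, C1ql3 and Dsp stayed negative under all 17 alternatives, at -1.08 to -0.49 for Prox1, -1.73 to -0.12 for C1ql2, -1.04 to -0.12 for C1ql3 and -1.57 to -0.46 for Dsp. Their adjusted p ran from 0.682, for C1ql3 without TBI2 (edgeR, log2 fold change -1.04, unadjusted p 0.00541), to 1, and C1ql3 summed with Gm37811, also chosen after seeing the data, had a log2 fold change of -0.71 and stayed uncalled. With 1 library left out, the median of the 8 genes ran from -1.0 to -0.22.

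Some medians of other lists moved by more than the spread between libraries. That of striatum, 3.74, was -0.04 and that of cerebellum, 6.37, was 0.77 without TBI1 and TBI3, and that of mossy cells, -0.10, was 0.43 with at least 10 counts in every library, which leaves fewer genes. With 1 library left out, medians ran from 0.17 to 4.29 for striatum, 0.17 to 6.94 for cerebellum, -0.29 to 0.66 for mossy cells, -0.23 to -0.06 for SNARE genes, -0.43 to -0.00 for TRPC channels and -0.62 to -0.04 for transcription factors. The cause was not tested.

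Sham and TBI share replicate numbers, which were not shown to pair the mice, as the correlations of same-numbered deviations were -0.0996, -0.0650 and 0.153. With the replicate block the median of the 8 genes was -0.55 and 0 were called. Low counts limit Tdo2, with 16 and 24 counts in its lowest libraries.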
